A study of Homo sapiens with 28 samples.

Results

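Messenger RNAs of the cytoplasmic ribosomal proteins were followed in a study of RNA turnover in HEK293T cells. They were taken by name from the authors' deposited table, which lists degradation rate constants: RPL or RPS, an optional P, a number, an optional A, X or L and an optional last digit, plus RPSA. This rule found 70 of the 2568 transcript names of that table, 44 for the large subunit and 26 for the small one. TimeLapse held 69 of them among 2209 transcripts, SLAM 68 among 1600 and TUC 69 among 2262, and 67 were listed for all 3 chemistries. RPL36A had no row with SLAM, RPL7 none with TUC, and RPS28 a row with TUC alone. In the RefSeq gene list 84 symbols fitted the rule. The 14 without a row, not analysed here, included RPL10L, RPL17, RPL21, RPL22L1, RPL26L1, RPL39L, RPL3L, RPL41, RPS18, RPS26, RPS27, RPS27L and RPS9. The name rule also admitted RPL7L1, a nucleolar relative of RPL7 that acts in assembly of the large subunit and is no part of the finished ribosome. It left out FAU, RACK1 and RPL36AL, among others, which code for ribosomal proteins under other names.

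All cells were wild-type HEK293T, an established human embryonic kidney line grown in serum-containing medium. They received 100 µM 4-thiouridine (s4U) for 2 h or no s4U, and extracted total RNA was treated so that s4U is read as C, in stranded total RNA libraries. The authors' deposited table calls these treatments TimeLapse (NaIO4, an oxidant, and the amine TFEA at pH 5.2), SLAM (the alkylating agent iodoacetamide) and TUC (OsO4 and NH3). Each chemistry was run under drop-out handling (DO) and under improved handling (IH). The series text sets common procedures against ones that keep s4U-labelled RNA and mismatch-bearing reads from being lost, at RNA collection and at data processing, so the contrast may hold both, and its steps are not described further. Each combination had 2 labelled libraries and 1 unlabelled library, 18 libraries in all, and 10 more, with further chemistries, are not used here. The labels do not say whether duplicates came from separate cultures, nor whether the chemistries shared cultures. Depth ran from 1935777 to 9962345 reads per library in the HISAT-3N alignments, and 16.7% to 24.98% of the reads of labelled DO libraries carried a T-to-C mismatch, against 40.0% to 58.2% under IH. Unlabelled libraries had 3.28% to 5.17% such reads under DO and 2.41% to 3.07% under IH. Of 8 marker genes of the line, VIM, KRT18, NEFL and NEFM had a row in the authors' deposited table, and of 6 markers of other cell types none had. The line markers KRT8, PAX2, LIN28B and SOX11 had no row either. Only transcripts that passed the authors' filter are listed, so a missing row is not read as absence.

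Every rate constant, log2 change and adjusted p given here is the authors' deposited value, computed by them with bakR over both handlings of a chemistry. The constant is that of first-order RNA degradation, so within a handling a higher constant means a shorter-lived RNA. The series text places the handlings at RNA collection and data processing. A change between them is therefore a change of the estimate and is not read as a change of lifetime in the cells. Its time unit is not stated, and no half-life was derived. The authors' deposited table holds no values per library and no errors, so the spread between the duplicates is not visible in it. The deposited adjusted p tests the change of handling within a transcript, and differences between transcripts have no test. A log2 change is positive where the constant was higher under IH than under DO, and a transcript is said to have risen or fallen where the deposited adjusted p was under 0.05.

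Cytoplasmic ribosomes are built from a large and a small subunit, whose proteins are made in matching amounts and are among the most abundantly encoded products of a growing cell. Their mRNAs are known for long lifetimes and for a 5′ terminal oligopyrimidine (TOP) tract, a C at the cap followed by an unbroken run of pyrimidines, through which the mTOR pathway and the protein LARP1 control their translation and storage. Most ribosomal protein genes also have many processed pseudogenes, near-copies of the mRNA elsewhere in the genome, and several carry small nucleolar RNAs in their introns.

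The TOP tract is a feature that the name rule did not use. RefSeq start windows (GRCh38.p14) reach from 250 bases before to 50 bases after an annotated gene start. By symbol they were matched to 56 of the 70 genes, 10 of them with more than 1 start. The windows below give 10 bases before and 20 bases from the start, 5′ to 3′ on the transcribed strand, with the pyrimidine run at the start in capitals. They show the 3 stalk genes and RPS21, which had some of the lowest IH constants, RPSA and RPL36A, which had the largest handling changes with TUC and TimeLapse, RPL39, with the longest run, and RPL7L1 and RPS29, 2 of the genes with the highest constants.
RPLP0, chr12:120201092-120201121, minus strand: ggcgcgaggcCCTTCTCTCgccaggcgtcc
RPLP1, chr15:69452808-69452837, plus strand: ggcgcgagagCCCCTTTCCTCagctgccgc
RPLP2, chr11:809957-809986, plus strand: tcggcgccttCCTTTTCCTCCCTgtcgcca
RPS21, chr20:62387093-62387122, plus strand: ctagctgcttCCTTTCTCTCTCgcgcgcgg
RPSA, chr3:39406710-39406739, plus strand: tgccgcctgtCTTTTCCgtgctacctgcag
RPL36A, chrX:101391001-101391030, plus strand: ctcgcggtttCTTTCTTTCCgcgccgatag
RPL39, chrX:119791611-119791640, minus strand: ccgccagcttCCCTCCTCTTCCTTTCTCCg
RPL7L1, chr6:42879606-42879635, plus strand: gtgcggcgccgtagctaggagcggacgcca
RPS29, chr14:49598691-49598720, minus strand: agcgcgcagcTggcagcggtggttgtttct
Of these 9 windows, 7 have a C at the start that opens an unbroken pyrimidine run, and those of RPL7L1 and RPS29 do not.

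A TOP start was counted where the first transcribed base is C and at least 4 more C or T follow without a break, on the transcribed strand only, where the tract is defined. Such a start was found for 41 of the 56 ribosomal protein genes with a window (73.2%), with runs of 6 to 19 bases and a median of 8. Of all 27305 RefSeq genes with a window 5.14% had one (4.07% of 35116 windows), and of the 1998 other genes of the authors' deposited table with a window 8.81% had such a start. The trinucleotide TCT across the start (T before it, C and T from it) was found in 12 of the 56 genes (21.4%), against 2.75% of all genes with a window, on the transcribed strand. It can overlap the TOP tract by its last letters. The letters CCGGAAG, searched on both strands in the 250 bases before the start, were in 21 of the 56 genes (37.5%), against 10.2% of all genes and 21.6% of the other genes of the authors' deposited table. The 15 genes with a window but no TOP start were RPL10A, RPL15, RPL19, RPL27, RPL3, RPL32, RPL4, RPL6, RPL7L1, RPL9, RPS15, RPS28, RPS29, RPS4X and RPS7. These counts depend on the annotated start.

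The first question was how fast ribosomal protein mRNAs turn over next to the other transcripts measured. Under IH their deposited constants had medians of 0.0278 with TimeLapse, 0.0231 with SLAM and 0.0337 with TUC, where the medians over all transcripts were 0.102 with TimeLapse, 0.0833 with SLAM and 0.0998 with TUC. The ribosomal protein median was thus 0.273, 0.278 and 0.338 times the overall one, in the same order. The interquartile range of the 69 TimeLapse values under IH lay between 0.0220 and 0.0385, and that of all transcripts between 0.0611 and 0.165. Ranked among all transcripts of a chemistry by the deposited IH constant, 46 of 69 members with TimeLapse, 48 of 68 with SLAM and 45 of 69 with TUC were at or below percentile 10. At or below percentile 25 were 64 with TimeLapse, 64 with SLAM and 63 with TUC. Above the overall median lay RPL7L1 and RPS29 with all chemistries, and RPL36A with the 2 that list it. The members were taken by name, but with earlier results of these data known. Transcripts are not replicates and share libraries, so no test was made over the group.

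**Figure D1:**
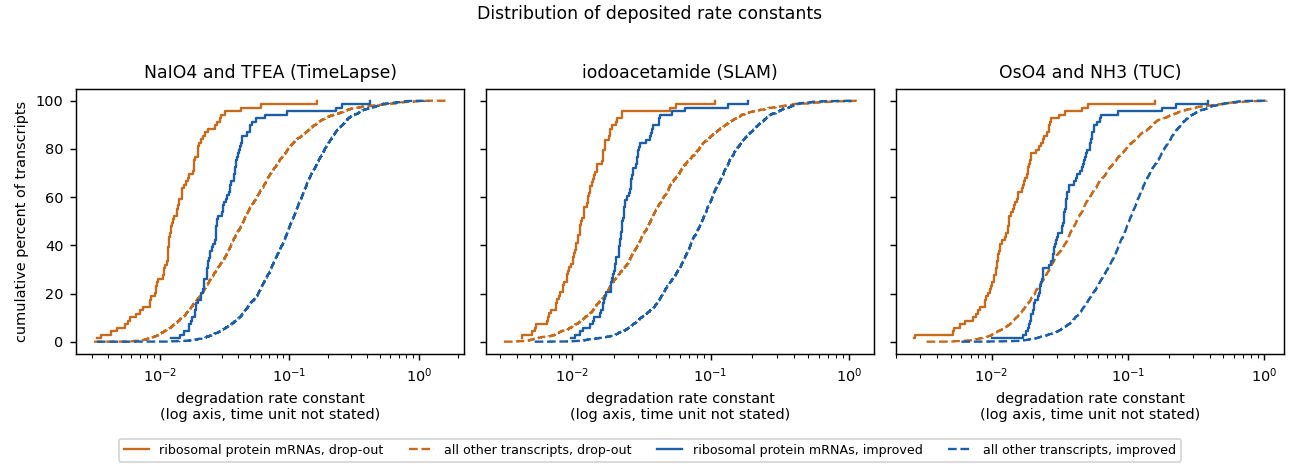
Cumulative percent of transcripts (vertical axis) at or below a deposited degradation rate constant (horizontal log axis, time unit not stated), for ribosomal protein mRNAs (solid) and all other transcripts (dashed) under drop-out (orange) and improved handling (blue), 1 panel per chemistry. Over most of its length each solid curve lies left of the dashed curve of the same handling, and both move right from drop-out to improved handling.

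The same position was found under DO, at lower constants. The deposited DO medians were 0.0125 with TimeLapse, 0.0118 with SLAM and 0.0134 with TUC for ribosomal protein mRNAs and 0.0430 with TimeLapse, 0.0354 with SLAM and 0.0411 with TUC for all transcripts, ratios of 0.291, 0.332 and 0.326. At or below percentile 10 under DO were 38 with TimeLapse, 31 with SLAM and 38 with TUC. The members at the lower end differed between chemistries. The lowest deposited DO constants were 0.00328 for RPLP1 with TimeLapse, 0.00435 for RPS3 with SLAM and 0.00269 for RPS10 with TUC. Under IH the lowest value was that of RPLP2 each time.

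Large and small subunit mRNAs had similar deposited constants. Under IH the medians of the large subunit were 0.0312 with TimeLapse, 0.0238 with SLAM and 0.0334 with TUC, and those of the small subunit 0.0255 with TimeLapse, 0.0219 with SLAM and 0.0338 with TUC. Under DO they were 0.0140 with TimeLapse, 0.0128 with SLAM and 0.0134 with TUC for the large and 0.0116 with TimeLapse, 0.0103 with SLAM and 0.0127 with TUC for the small subunit. The order of the subunits under IH was the same with TimeLapse and SLAM and turned with TUC, by margins far smaller than the spread among the members of either subunit.

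**Figure D2:**
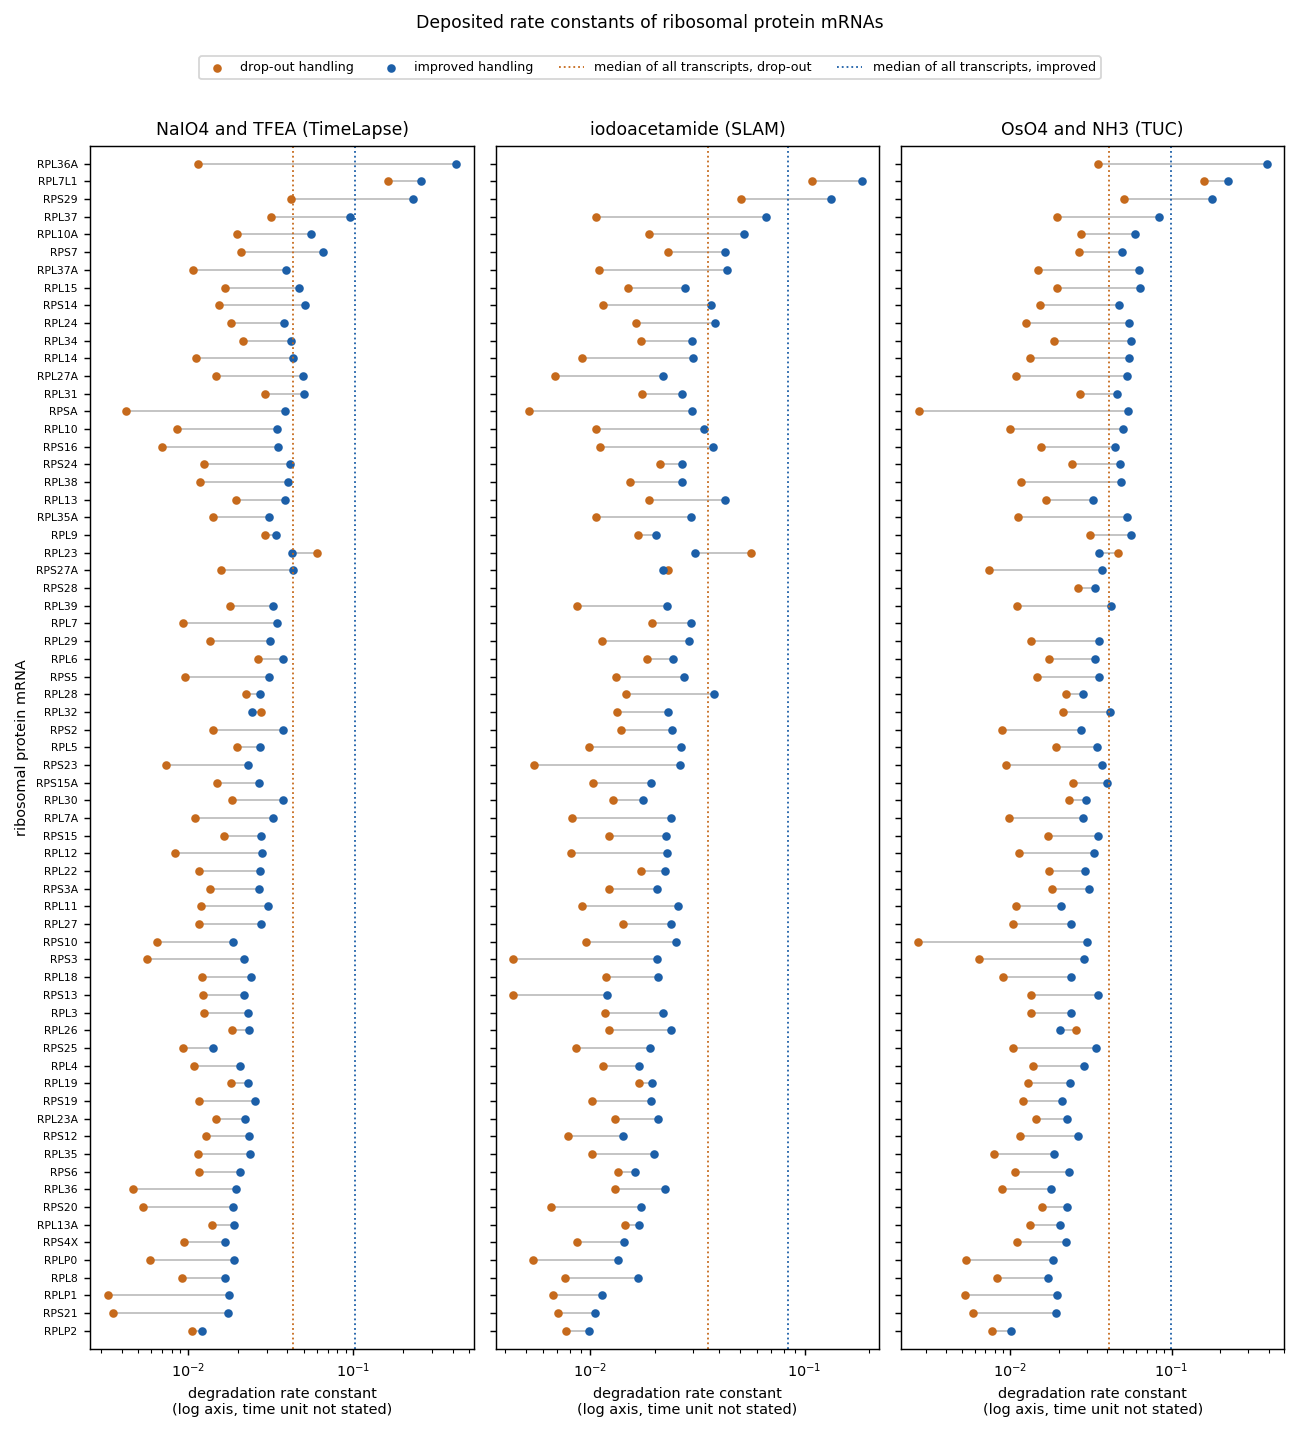
Deposited degradation rate constant of 67 of the 70 ribosomal protein mRNAs (horizontal log axis, time unit not stated) under drop-out (orange) and improved handling (blue), joined by a grey line, with 1 panel per chemistry and the members ordered by their mean under improved handling. Dotted lines mark the medians of all transcripts. Nearly all points lie left of the line of their own colour. To its right lie RPL7L1 under both handlings, RPL23 under drop-out handling, RPL36A under improved handling, and RPS29 under improved handling and, with SLAM and TUC, under drop-out handling.

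The stalk proteins form the flexible arm of the large subunit that recruits elongation factors, with RPLP0 as its base. Their mRNAs were at the slow end. RPLP2 had deposited constants of 0.0106 (DO) and 0.0121 (IH) with TimeLapse, 0.00768 (DO) and 0.00979 (IH) with SLAM and 0.00770 (DO) and 0.0102 (IH) with TUC. It had the lowest IH constant of all members each time, at most at percentile 0.250 of all transcripts. RPS21, of the small subunit, had the next lowest mean IH constant of the members, at 0.00353 (DO) and 0.0175 (IH) with TimeLapse, 0.00704 (DO) and 0.0105 (IH) with SLAM and 0.00588 (DO) and 0.0191 (IH) with TUC. RPLP1 had 0.00328 (DO) and 0.0178 (IH) with TimeLapse, 0.00671 (DO) and 0.0114 (IH) with SLAM and 0.00523 (DO) and 0.0196 (IH) with TUC. RPLP0 had 0.00591 (DO) and 0.0189 (IH) with TimeLapse, 0.00541 (DO) and 0.0134 (IH) with SLAM and 0.00529 (DO) and 0.0184 (IH) with TUC. The deposited log2 changes of RPLP0 were 1.69 with TimeLapse (adjusted p = 5.05e-09), 1.31 with SLAM (adjusted p = 0.000231) and 1.81 with TUC (adjusted p = 2.34e-05), a rise in every chemistry. RPLP1 rose by 2.48 with TimeLapse (adjusted p = 2.15e-06) and by 1.92 with TUC (adjusted p = 2.15e-05), and its value with SLAM was 0.74 (adjusted p = 0.164). The DO constants of RPLP1 were at percentile 0.0905 of all transcripts with TimeLapse and 0.265 with TUC. Those of RPLP0 were at 0.543 and 0.354, so these changes start near the floor of the DO constants. No change passed the threshold for RPLP2, whose deposited values were 0.20 with TimeLapse (adjusted p = 0.649), 0.34 with SLAM (adjusted p = 0.487) and 0.40 with TUC (adjusted p = 0.394).

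Several large-subunit proteins were taken for their known places in the ribosome. RPL3, which reaches towards the peptidyl transferase centre, had deposited constants of 0.0125 (DO) and 0.0231 (IH) with TimeLapse, 0.0117 (DO) and 0.0217 (IH) with SLAM and 0.0134 (DO) and 0.0237 (IH) with TUC. RPL4 lines the exit tunnel and had 0.0108 (DO) and 0.0208 (IH) with TimeLapse, 0.0115 (DO) and 0.0169 (IH) with SLAM and 0.0138 (DO) and 0.0288 (IH) with TUC. RPL8, another protein close to the catalytic centre, had 0.00916 (DO) and 0.0167 (IH) with TimeLapse, 0.00759 (DO) and 0.0166 (IH) with SLAM and 0.00828 (DO) and 0.0170 (IH) with TUC. The IH constants of RPL3 and RPL8 were nearly the same in all chemistries, while that of RPL4 was highest with TUC. RPL3 and RPL8 rose in all chemistries, and RPL4 rose with TimeLapse (adjusted p = 0.0145) and TUC (adjusted p = 0.0169) and had 0.58 with SLAM (adjusted p = 0.141). RPL10, which joins the large subunit last and borders the P site, had 0.00860 (DO) and 0.0345 (IH) with TimeLapse, 0.0106 (DO) and 0.0339 (IH) with SLAM and 0.010 (DO) and 0.0499 (IH) with TUC. Its IH constants were above those of RPL3, RPL4 and RPL8 in every chemistry, and its DO constants below those of RPL3 and RPL4. Its deposited log2 changes were 2.03 with TimeLapse (adjusted p = 5.69e-06), 1.68 with SLAM (adjusted p = 0.000217) and 2.34 with TUC (adjusted p = 2.91e-07). RPL22, a protein of the large subunit's outer surface, had 0.0117 (DO) and 0.0274 (IH) with TimeLapse, 0.0172 (DO) and 0.0222 (IH) with SLAM and 0.0174 (DO) and 0.0291 (IH) with TUC, with log2 changes of 1.3 with TimeLapse (adjusted p = 0.0361), 0.40 with SLAM (adjusted p = 0.502) and 0.81 with TUC (adjusted p = 0.213). RPL39, a small protein of the exit tunnel, had 0.0180 (DO) and 0.0325 (IH) with TimeLapse, 0.00867 (DO) and 0.0228 (IH) with SLAM and 0.0111 (DO) and 0.0421 (IH) with TUC, and rose with TUC alone (log2 2.03, adjusted p = 0.00773).

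RPL5 and RPL11 bind 5S rRNA and, outside the ribosome, the p53 regulator MDM2. RPL5 had deposited constants of 0.0199 (DO) and 0.0273 (IH) with TimeLapse, 0.00988 (DO) and 0.0265 (IH) with SLAM and 0.0193 (DO) and 0.0347 (IH) with TUC, and RPL11 had 0.0120 (DO) and 0.0304 (IH) with TimeLapse, 0.00914 (DO) and 0.0258 (IH) with SLAM and 0.0109 (DO) and 0.0206 (IH) with TUC. RPL5 rose with SLAM (log2 1.46, adjusted p = 0.000971) and TUC (0.87, adjusted p = 0.0454), with 0.48 for TimeLapse (adjusted p = 0.143). RPL11 rose with TimeLapse (1.44, adjusted p = 0.0465) and SLAM (1.58, adjusted p = 0.0395), with 1.03 for TUC (adjusted p = 0.208). The partner genes thus passed the threshold in different pairs of chemistries, and whether the chemistries differ for either gene was not tested.

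Small-subunit mRNAs covered a similar range. RPS3, at the mRNA entry site, had among the lowest DO constants and rose in every chemistry: its deposited constants were 0.00566 (DO) and 0.0219 (IH) with TimeLapse, 0.00435 (DO) and 0.0205 (IH) with SLAM and 0.00637 (DO) and 0.0288 (IH) with TUC. The log2 changes were 1.97 with TimeLapse (adjusted p = 7.79e-08), 2.26 with SLAM (adjusted p = 2.23e-07) and 2.19 with TUC (adjusted p = 4.95e-07). RPS2, its neighbour at the entry site, rose too, from 0.0141 to 0.0375 with TimeLapse, 0.0139 to 0.0240 with SLAM and 0.00887 to 0.0275 with TUC. RPS6, the classic substrate of S6 kinase, had 0.0116 (DO) and 0.0207 (IH) with TimeLapse, 0.0134 (DO) and 0.0161 (IH) with SLAM and 0.0107 (DO) and 0.0230 (IH) with TUC, and rose with TimeLapse (log2 0.87, adjusted p = 0.0441) and TUC (1.13, adjusted p = 0.0213). RPS14 and RPS19 are known from inherited and acquired anaemias of ribosome shortage. RPS14 was at 0.0154 (DO) and 0.0511 (IH) with TimeLapse, 0.0114 (DO) and 0.0366 (IH) with SLAM and 0.0153 (DO) and 0.0470 (IH) with TUC, and rose in every chemistry, by 1.76 with TimeLapse, 1.71 with SLAM and 1.65 with TUC on the log2 scale. RPS19 was at 0.0116 (DO) and 0.0255 (IH) with TimeLapse, 0.0101 (DO) and 0.0192 (IH) with SLAM and 0.0119 (DO) and 0.0210 (IH) with TUC, and passed the threshold with TimeLapse alone (log2 1.16, adjusted p = 0.0101), with adjusted p = 0.0546 for SLAM and 0.0729 for TUC. RPS4X, encoded on the X chromosome, rose in all chemistries, from 0.00943 to 0.0168 with TimeLapse, 0.00861 to 0.0143 with SLAM and 0.0110 to 0.0220 with TUC.

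Of the 4 mRNAs with the highest mean IH constants, RPL36A, RPS29 and RPL7L1 stood apart from the rest. RPL37 lay below the median of all transcripts in every chemistry. RPL36A (chrX:101391011-101396155, GRCh38.p14) codes for a protein of the E site and had deposited constants of 0.0116 (DO) and 0.420 (IH) with TimeLapse and 0.0348 (DO) and 0.391 (IH) with TUC, near the bottom or middle under DO and among the highest of all transcripts under IH. Its log2 changes were 5.33 with TimeLapse (adjusted p = 2.78e-11) and 3.56 with TUC (adjusted p = 2.14e-08), the largest of any member with TimeLapse. RefSeq annotates a read-through gene, RPL36A-HNRNPH2, over the same locus, and 52 pseudogene symbols carry its name, so which reads were counted for it is uncertain. RPS29 (chr14:49570988-49598710), a zinc-binding protein of the small subunit, had 0.0420 (DO) and 0.229 (IH) with TimeLapse, 0.0505 (DO) and 0.134 (IH) with SLAM and 0.0508 (DO) and 0.177 (IH) with TUC and rose by 2.54 with TimeLapse (adjusted p = 0.000263), 1.46 with SLAM (adjusted p = 0.0157) and 1.88 with TUC (adjusted p = 0.00355). RPL7L1 (chr6:42879616-42889900), the assembly factor, was fast under both handlings: 0.162 (DO) and 0.257 (IH) with TimeLapse, 0.108 (DO) and 0.185 (IH) with SLAM and 0.159 (DO) and 0.225 (IH) with TUC. None of its deposited changes passed the threshold, at 0.70 with TimeLapse (adjusted p = 0.0996), 0.83 with SLAM (adjusted p = 0.120) and 0.54 with TUC (adjusted p = 0.298). RPL37 (chr5:40825262-40835222), a zinc-binding protein of the large subunit, followed with 0.0317 (DO) and 0.0961 (IH) with TimeLapse, 0.0106 (DO) and 0.0657 (IH) with SLAM and 0.0194 (DO) and 0.0842 (IH) with TUC. It rose by 1.64 with TimeLapse (adjusted p = 0.000602), 2.73 with SLAM (adjusted p = 4.65e-05) and 2.18 with TUC (adjusted p = 0.000216), the largest change of any member with SLAM. The next highest mean IH constants were those of RPL10A and RPS7, whose deposited IH values were 0.0555 with TimeLapse, 0.0524 with SLAM and 0.0591 with TUC for RPL10A and 0.0652 with TimeLapse, 0.0427 with SLAM and 0.0496 with TUC for RPS7. At the middle of the members' IH constants were RPL27 with TimeLapse (0.0278) and RPS28 with TUC (0.0337).

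The second question was how the change of handling moved these constants. Of the 206 member values, 199 were positive and 7 negative, and over all transcripts 2053 of 2209 values with TimeLapse, 1463 of 1600 with SLAM and 2101 of 2262 with TUC were positive, so most values were positive in both. With TimeLapse 41 of 69 members rose and 0 fell, where 52.6% of all transcripts rose and 0.679% fell. With SLAM 27 of 68 rose and 1, RPL23, fell, against 48.9% and 1.44% of all transcripts. With TUC 43 of 69 rose and 0 fell, against 48.1% and 0.442%. The risen share of the members was thus 59.4% with TimeLapse, 39.7% with SLAM and 62.3% with TUC. It lay above that of all transcripts with TimeLapse and TUC and below it with SLAM. These differences were not tested, and nothing about the members is read from them. The median deposited log2 change of the members was 1.16 with TimeLapse, 0.93 with SLAM and 1.13 with TUC, and that of all transcripts 1.18 with TimeLapse, 1.14 with SLAM and 1.19 with TUC. The median member thus moved by about the same factor as the median transcript with TimeLapse and TUC and by a smaller one with SLAM. From DO to IH the members' median over that of all transcripts went from 0.291 to 0.273 with TimeLapse and from 0.326 to 0.338 with TUC. With SLAM it went from 0.332 to 0.278, a wider gap under IH. The share of converted reads per library was higher under IH in all labelled libraries (16.7% to 24.98% and 40.0% to 58.2%), and its part in these changes was not tested.

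**Figure D3:**
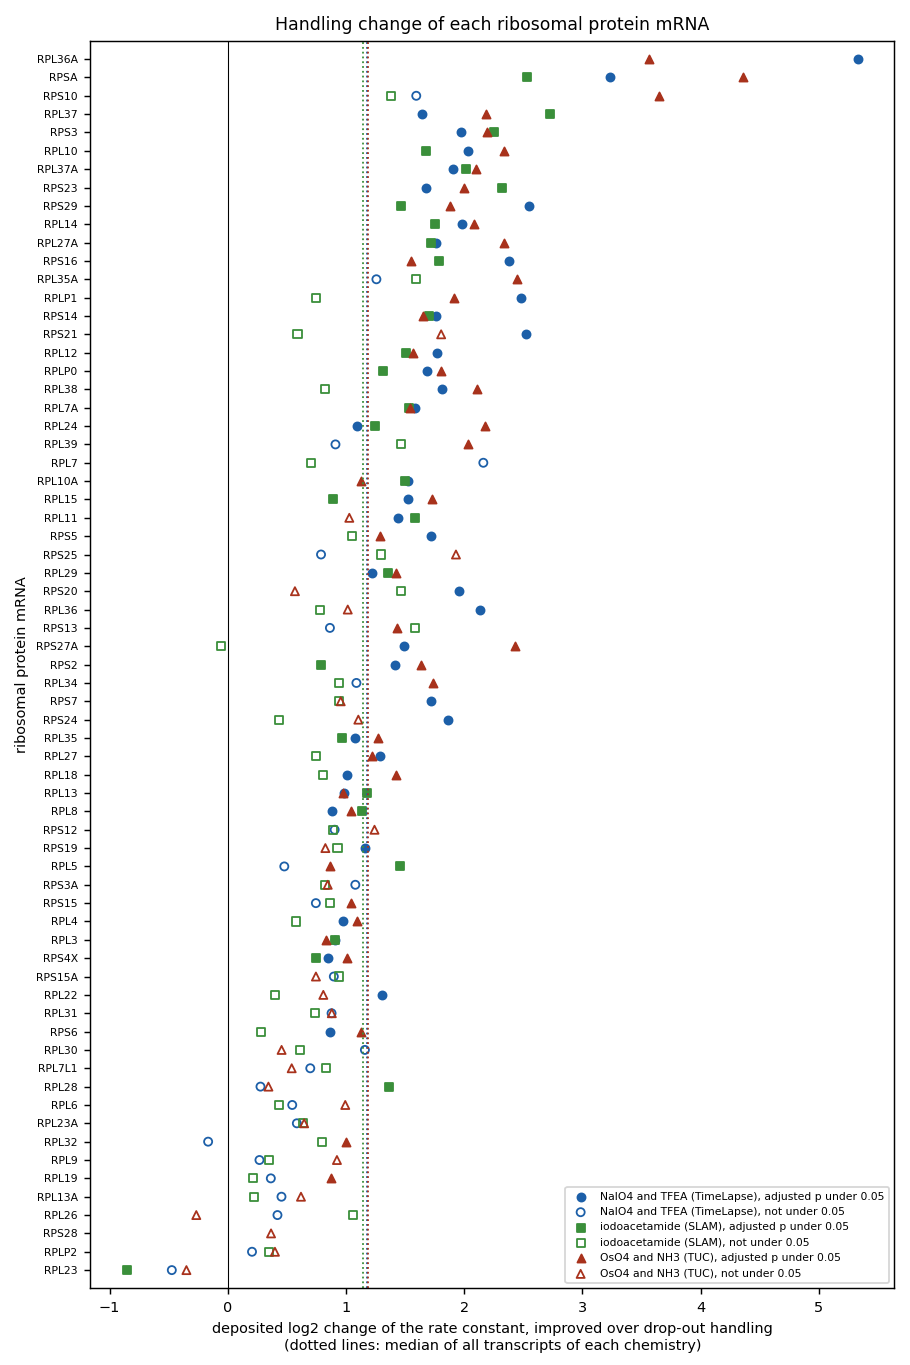
Deposited log2 change of the rate constant, improved over drop-out handling (horizontal axis), for 67 of the 70 ribosomal protein mRNAs, ordered by their mean change. Colours and shapes give the chemistry, filled symbols have a deposited adjusted p under 0.05, and dotted lines are the medians of all transcripts. Most symbols lie right of 0, RPL36A, RPSA and RPS10 reach furthest, and RPL23 alone lies left of 0 in all 3 chemistries.

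Of the 67 members listed for all 3 chemistries, 24 rose in each, where 36.2% of the 1471 transcripts listed for all 3 rose in each. They were RPL10, RPL10A, RPL12, RPL13, RPL14, RPL15, RPL24, RPL27A, RPL29, RPL3, RPL35, RPL37, RPL37A, RPL7A, RPL8 and RPLP0 of the large subunit, and RPS14, RPS16, RPS2, RPS23, RPS29, RPS3, RPS4X and RPSA of the small one. Of the 67, 16 rose in none of the 3 chemistries, against 29.6% of the 1471. Both shares of the members lie close to those of all transcripts, and neither difference was tested. At an adjusted p under 0.01 the risen members were 27 with TimeLapse, 20 with SLAM and 27 with TUC, where 33.5%, 32.4% and 27% of all transcripts passed.

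Among the members that rose in all 3 chemistries, RPSA had the largest change with TimeLapse and TUC and, after RPL37, with SLAM. It codes for a small-subunit protein also known as a laminin receptor precursor (chr3:39406720-39412542). Its deposited constants were 0.00420 (DO) and 0.0385 (IH) with TimeLapse, 0.00517 (DO) and 0.0298 (IH) with SLAM and 0.00272 (DO) and 0.0540 (IH) with TUC. Under DO it was among the slowest transcripts of each chemistry, and under IH its constants lay above the members' median. The log2 changes were 3.23 with TimeLapse (adjusted p = 5.14e-13), 2.54 with SLAM (adjusted p = 2.22e-08) and 4.36 with TUC (adjusted p = 1.81e-15). RefSeq lists 74 pseudogene symbols of RPSA, and 1 of them, RPSAP58, had rows of its own: its deposited constants were 0.0401 (DO) and 0.0498 (IH) with TimeLapse and 0.0288 (DO) and 0.0302 (IH) with TUC, with log2 changes of 0.36 with TimeLapse (adjusted p = 0.650) and 0.11 with TUC (adjusted p = 0.908). RPS10 had 0.00650 (DO) and 0.0188 (IH) with TimeLapse, 0.00948 (DO) and 0.0251 (IH) with SLAM and 0.00269 (DO) and 0.0300 (IH) with TUC. It rose with TUC alone (log2 3.65, adjusted p = 0.000523), with 1.59 for TimeLapse (adjusted p = 0.0556) and 1.38 for SLAM (adjusted p = 0.101). RefSeq annotates a read-through gene, RPS10-NUDT3, over the locus of RPS10, and 31 pseudogene symbols carry its name. Which reads were counted for RPS10 is therefore uncertain, as for RPL36A. With TUC the DO constant of RPS10 was the lowest of all transcripts, and that of RPSA was at percentile 0.0884. Their TUC changes thus start from the floor of the DO constants.

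RPL23 was the only member with a lower constant under IH in all 3 chemistries. It codes for a protein at the subunit interface that can also bind MDM2 (chr17:38847860-38853721). The deposited constants were 0.0599 (DO) and 0.0424 (IH) with TimeLapse, 0.0560 (DO) and 0.0307 (IH) with SLAM and 0.0463 (DO) and 0.0357 (IH) with TUC, and the log2 changes -0.47 with TimeLapse (adjusted p = 0.238), -0.85 with SLAM (adjusted p = 0.0341) and -0.35 with TUC (adjusted p = 0.485). It fell with SLAM, and the other 2 values did not pass the threshold. At an adjusted p under 0.01 the SLAM value does not pass either. Under DO its constants were above the overall median, and under IH well below it. Other members had a negative value in 1 chemistry, none past the threshold, among them RPL32 (-0.17) with TimeLapse, RPL26 (-0.27) with TUC and RPS27A (-0.06) with SLAM. RPS27A, made as a fusion with ubiquitin, rose with TimeLapse (1.49, adjusted p = 0.00426) and TUC (2.43, adjusted p = 0.00141). Its constants were 0.0158 (DO) and 0.0431 (IH) with TimeLapse, 0.0230 (DO) and 0.0219 (IH) with SLAM and 0.00734 (DO) and 0.0371 (IH) with TUC. The difference between chemistries was not tested.

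The members that rose in no chemistry that lists them, 16 of which are listed for all 3, included RPL13A, RPL23, RPL23A, RPL26, RPL30, RPL31, RPL6, RPL7, RPL7L1, RPL9, RPLP2, RPS12, RPS15A, RPS25, RPS28 and RPS3A. They did not share a small change. RPL13A, also known for a role in the interferon response, had deposited constants of 0.0139 (DO) and 0.0190 (IH) with TimeLapse, 0.0145 (DO) and 0.0168 (IH) with SLAM and 0.0132 (DO) and 0.0202 (IH) with TUC and log2 changes of 0.45 with TimeLapse (adjusted p = 0.128), 0.22 with SLAM (adjusted p = 0.563) and 0.62 with TUC (adjusted p = 0.112). RPL26, which can bind p53 mRNA, had 0.0185 (DO) and 0.0234 (IH) with TimeLapse, 0.0122 (DO) and 0.0238 (IH) with SLAM and 0.0255 (DO) and 0.0203 (IH) with TUC, with log2 changes of 0.42 with TimeLapse (adjusted p = 0.521), 1.06 with SLAM (adjusted p = 0.143) and -0.27 with TUC (adjusted p = 0.670). Both genes had constants under the handlings that lay within a small factor of each other in at least 1 chemistry. Above the members' median change of the same chemistry lay RPL7 with TimeLapse and RPS25 with SLAM and TUC. RPL26 and RPS15A with SLAM and RPS12 with TUC also lay above it, while all values of RPL31 lay below it. RPL7 had log2 changes of 2.16 with TimeLapse (adjusted p = 0.0635) and 0.71 with SLAM (adjusted p = 0.494), RPS25 of 0.79 with TimeLapse (adjusted p = 0.484), 1.29 with SLAM (adjusted p = 0.198) and 1.93 with TUC (adjusted p = 0.0808), and RPL31 of 0.88 with TimeLapse (adjusted p = 0.210), 0.74 with SLAM (adjusted p = 0.396) and 0.88 with TUC (adjusted p = 0.243). Further values were 0.58 with TimeLapse, 0.64 with SLAM and 0.65 with TUC for RPL23A, 1.16 with TimeLapse, 0.61 with SLAM and 0.46 with TUC for RPL30, 0.55 with TimeLapse, 0.43 with SLAM and 0.99 with TUC for RPL6 and 0.27 with TimeLapse, 0.35 with SLAM and 0.92 with TUC for RPL9, all with adjusted p above 0.05. Of the small subunit, the values in this set included 0.90 with TimeLapse, 0.89 with SLAM and 1.24 with TUC for RPS12, 0.90 with TimeLapse, 0.94 with SLAM and 0.75 with TUC for RPS15A, 1.08 with TimeLapse, 0.83 with SLAM and 0.85 with TUC for RPS3A and 0.37 with TUC for RPS28. A deposited p that misses the threshold does not show that handling left these constants alone.

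The rank among all transcripts is compressed at the low end, where most members sit (median DO percentile 7.88 with TimeLapse, 10.8 with SLAM and 8.27 with TUC), so most could not fall by 20 points and a large rise can move a member little. RPS10 with TUC rose by 3.65 on the log2 scale and moved by 5.31 points. In every chemistry that lists them, 55 of the 70 members stayed within 20 percentile points of their DO rank, from which no stability is read. RPL36A was the only member to move up by more than 20 points in each chemistry listed, from the percentile 6.34 to 96.9 with TimeLapse and 42.4 to 97.2 with TUC. RPL23 moved down in all 3, from 63.8 to 12.9 with TimeLapse, 69.1 to 12.4 with SLAM and 55.3 to 8.36 with TUC, and RPS28 in the 1 that lists it, from 31.2 to 7.29 with TUC. Unlike that of RPL23, the constant of RPS28 was higher under IH (0.0337) than under DO (0.0262), although its rank was lower. RPS29 went from 48.9 to 87.3 with TimeLapse, 65.6 to 74.6 with SLAM and 59.9 to 78.6 with TUC, RPL37 from 36.7 to 46.5 with TimeLapse, 8.50 to 38.1 with SLAM and 19.2 to 40.1 with TUC and RPSA from 0.226 to 10.7 with TimeLapse, 1.12 to 11.7 with SLAM and 0.0884 to 20.9 with TUC. RPL7L1 stayed high throughout, from 90.7 to 90.1 with TimeLapse, 87.2 to 86.2 with SLAM and 91.2 to 87.4 with TUC. Percentiles are of transcripts that passed the authors' own filter, which differs in size between chemistries.

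**Figure D4:**
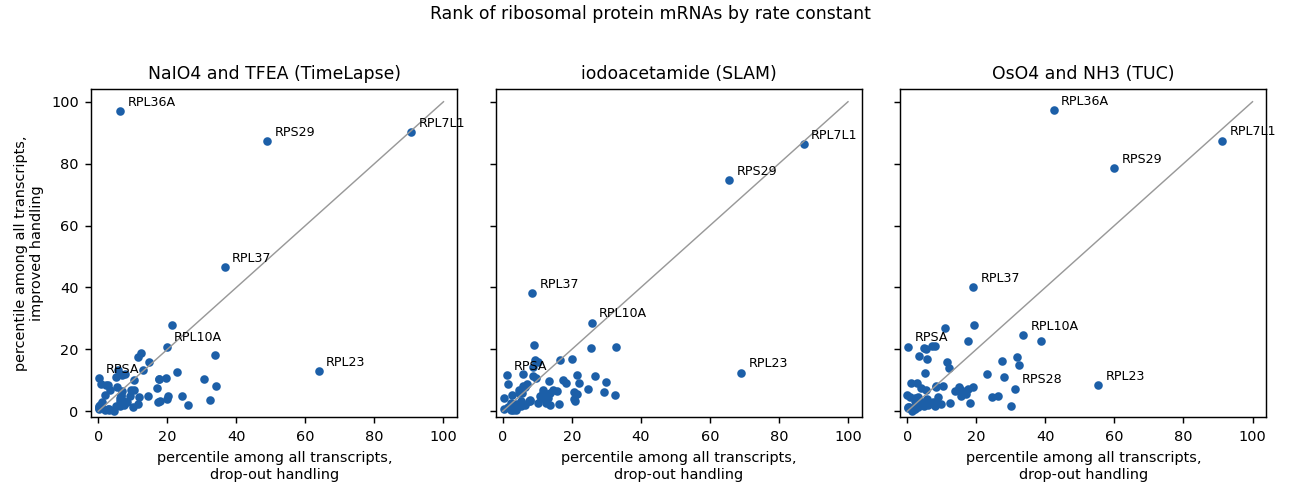
Percentile of each ribosomal protein mRNA among all transcripts of its chemistry by deposited rate constant, under drop-out (horizontal axis) and improved handling (vertical axis), 1 panel per chemistry. The grey line marks equal percentiles. Most members crowd in the lower left corner, and RPL36A lies far above the line in both panels that list it. RPS29 with TimeLapse and RPL37 with SLAM also lie clearly above it. RPL37, RPSA and RPS29 lie above it by smaller distances with TUC, and RPL23 lies far below it in all 3 panels.

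The chemistries ordered the members alike, but less closely than they ordered all transcripts. Across members, Spearman's rho of the deposited IH constants was 0.80 between TimeLapse and SLAM (68 members), 0.82 between TimeLapse and TUC (68) and 0.73 between SLAM and TUC (67). Over all transcripts listed for both, it was 0.94, 0.93 and 0.92. For DO constants the members gave 0.67, 0.74 and 0.64, and for the log2 changes 0.49, 0.67 and 0.55. Members span a narrower range than all transcripts, members share libraries within a chemistry, and genes are not independent replicates, so these values are descriptions. Among the 67 members listed for all 3 chemistries, the highest IH constant was 1.46 times the lowest in the median member and at most 2.94 times. TUC gave the highest IH constant for 43 of the 67 and SLAM the lowest for 53, where TUC was highest for 42.0% and SLAM lowest for 58.7% of the 1471 transcripts. The largest spread was that of RPS13, a small-subunit protein with 2 small nucleolar RNA genes inside its own, at 0.0217 with TimeLapse, 0.0119 with SLAM and 0.0350 with TUC.

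Members were also split by what the name rule did not use. With TimeLapse the 41 members with a TOP start had a median deposited IH constant of 0.0279 and the 14 with a window but no TOP start 0.0308. With SLAM the medians were 0.0233 (40 members) and 0.0234 (14), and with TUC 0.0329 (41) and 0.0349 (15). Under DO the 2 classes lay further apart, at 0.0117 and 0.0190 with TimeLapse, 0.0106 and 0.0159 with SLAM, and 0.0114 and 0.0195 with TUC. The median log2 change was higher with a TOP start, at 1.44 against 0.88, 1.27 against 0.81 and 1.57 against 0.996, in the order of the chemistries above. The range of IH constants with a TOP start, from 0.0121 to 0.420 with TimeLapse, held that of the others, from 0.0168 to 0.257. With SLAM, which does not list RPL36A, the ranges were 0.00979 to 0.0433 with a TOP start and 0.0143 to 0.185 without, and they overlapped. The upper ends of the ranges without a TOP start are the values of RPL7L1, which is no part of the finished ribosome. RPL36A has a TOP start and a high IH constant, while RPS4X has none at its annotated start and a low constant. These classes were compared after the values were known and were not tested. Because these classes rest on the annotated start, a member counts as without TOP where RefSeq places the start elsewhere.

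Small nucleolar RNA genes lie inside 27 of the 70 members' gene spans in RefSeq, with 4 each in RPL13A, RPL23A, RPL3, RPL4 and RPL7A, among others. The median deposited IH constants of these hosts were 0.0269 with TimeLapse, 0.0227 with SLAM and 0.0296 with TUC, and those of the other members 0.0309, 0.0251 and 0.0354. The median log2 changes were 0.91, 0.91 and 0.996 in hosts and 1.37, 0.94 and 1.28 in the others. Pseudogene symbols of the form of a member's name followed by P and a number exist for all 70 members, 1669 in all, with a median of 18 and up to 95 for RPL23A. Members with more than 18 had median IH constants of 0.0315 with TimeLapse, 0.0238 with SLAM and 0.0351 with TUC, and the others 0.0264, 0.0227 and 0.0327. How reads shared with pseudogenes were counted is not given in the sources used here, so the constants of all members carry that uncertainty. Besides RPSAP58, 3 pseudogenes had rows. RPL23AP42 had 0.0694 (DO) and 0.0706 (IH) with TimeLapse, 0.141 (DO) and 0.0578 (IH) with SLAM and 0.145 (DO) and 0.0452 (IH) with TUC, and fell with SLAM (log2 -1.31, adjusted p = 0.0218) and TUC (-1.69, adjusted p = 0.0135), while RPL23A itself was at 0.0147 (DO) and 0.0220 (IH) with TimeLapse, 0.0131 (DO) and 0.0206 (IH) with SLAM and 0.0143 (DO) and 0.0225 (IH) with TUC. RPL13AP5 had 0.0990 (DO) and 0.0706 (IH) with TimeLapse and 0.0697 (DO) and 0.0504 (IH) with TUC. RPS2P5 had 0.0162 (DO) and 0.0520 (IH) with TUC, and rose by 1.68 on the log2 scale (adjusted p = 0.00148), close to RPS2 at 1.63. All 4 pseudogenes had higher DO constants than their parent genes in every chemistry that lists them.

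Related genes were read from lists drawn up with the design, to place the members beside other parts of the translation machinery. Of the ribosomal proteins under other names, FAU and RACK1 had deposited constants like those of the members. RACK1, a scaffold on the head of the small subunit, had 0.00942 (DO) and 0.0258 (IH) with TimeLapse, 0.00807 (DO) and 0.0223 (IH) with SLAM and 0.00989 (DO) and 0.0307 (IH) with TUC, and rose in all 3 chemistries, by 1.46 with TimeLapse, 1.47 with SLAM and 1.64 with TUC on the log2 scale. FAU had 0.0136 (DO) and 0.0240 (IH) with TimeLapse, 0.0101 (DO) and 0.0215 (IH) with SLAM and 0.01002 (DO) and 0.0214 (IH) with TUC. RPL36AL, a paralogue of RPL36A, was faster, at 0.0763 (DO) and 0.145 (IH) with TimeLapse and 0.0992 (DO) and 0.110 (IH) with TUC, with log2 changes of 0.96 with TimeLapse (adjusted p = 0.0521) and 0.17 with TUC (adjusted p = 0.786). Both RPL36A and RPL36AL were therefore above the overall median under IH with TimeLapse and TUC.

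Other mRNAs known to carry a TOP tract had deposited IH medians of 0.0425 with TimeLapse, 0.0388 with SLAM and 0.0524 with TUC, over 21, 20 and 20 genes, and 13 of the 16 with a RefSeq window had a TOP start by the rule above. The medians lay between those of the members and of all transcripts. Of them 11 rose and 1 fell with TimeLapse, 10 rose and 1 fell with SLAM, and 13 rose and 1 fell with TUC. Of all transcripts 52.6%, 48.9% and 48.1% rose, so the counts with TimeLapse and SLAM are near those shares. With TUC 65% of the listed genes rose, a larger share. Of all transcripts 0.679%, 1.44% and 0.442% fell, in the same order, and none of these differences was tested. The fallen gene was EEF2, the translocation factor, each time: its constants were 0.0803 (DO) and 0.0575 (IH) with TimeLapse, 0.0666 (DO) and 0.0388 (IH) with SLAM and 0.0592 (DO) and 0.0278 (IH) with TUC, and its log2 changes -0.48 with TimeLapse (adjusted p = 0.0211), -0.78 with SLAM (adjusted p = 0.000878) and -1.10 with TUC (adjusted p = 0.000147). EEF1A1, which delivers aminoacyl-tRNA, had 0.0126 (DO) and 0.0186 (IH) with TimeLapse, 0.00933 (DO) and 0.0130 (IH) with SLAM and 0.0125 (DO) and 0.0250 (IH) with TUC. PABPC1, the poly(A)-binding protein, had 0.0118 (DO) and 0.0186 (IH) with TimeLapse, 0.00836 (DO) and 0.0149 (IH) with SLAM and 0.0172 (DO) and 0.0206 (IH) with TUC. TPT1 had 0.0587 (DO) and 0.0409 (IH) with TimeLapse, 0.0404 (DO) and 0.0290 (IH) with SLAM and 0.0475 (DO) and 0.0361 (IH) with TUC, with log2 changes of -0.49 with TimeLapse (adjusted p = 0.251), -0.44 with SLAM (adjusted p = 0.356) and -0.36 with TUC (adjusted p = 0.445), negative in all 3 like those of RPL23. At the fast end were EIF4A2, with 0.0930 (DO) and 0.484 (IH) with TimeLapse, 0.0721 (DO) and 0.398 (IH) with SLAM and 0.162 (DO) and 0.595 (IH) with TUC, and the non-coding hosts of small nucleolar RNAs GAS5, at 0.0730 (DO) and 0.130 (IH) with TimeLapse, 0.0157 (DO) and 0.108 (IH) with SLAM and 0.0493 (DO) and 0.223 (IH) with TUC, and SNHG1, at 0.0887 (DO) and 0.269 (IH) with TimeLapse, 0.0766 (DO) and 0.237 (IH) with SLAM and 0.146 (DO) and 0.314 (IH) with TUC. This list therefore held both long-lived and short-lived RNAs.

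**Figure D5:**
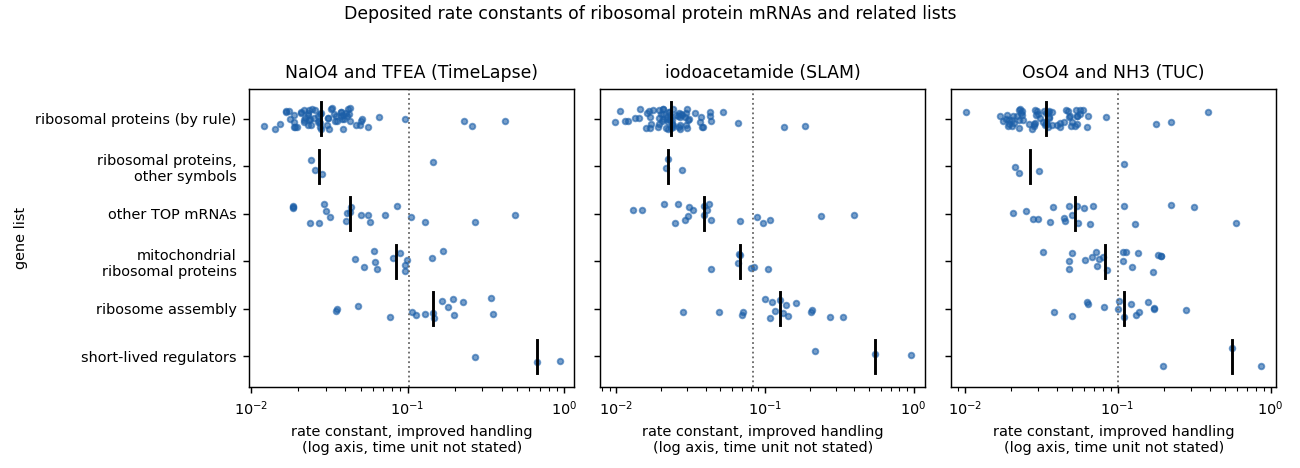
Deposited rate constants under improved handling (horizontal log axis, time unit not stated) of single genes (points) in 6 gene lists, with the list's median (black bar) and the median of all transcripts (dotted line), 1 panel per chemistry. The vertical scatter within a list has no meaning. Ribosomal proteins, by the name rule or under other names, lie lowest, with few fast members apart, mitochondrial ribosomal proteins and ribosome assembly factors lie near the dotted line, and short-lived regulators lie highest.

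Mitochondrial ribosomal proteins, which build the separate ribosome of mitochondria, had deposited IH medians of 0.0846 with TimeLapse, 0.0679 with SLAM and 0.0825 with TUC, over 12, 7 and 20 genes. In the same order 3, 3 and 2 of them rose and 0 fell, where 52.6%, 48.9% and 48.1% of all transcripts rose. Ribosome assembly factors, which process rRNA and build the subunits in the nucleolus, had IH medians of 0.146 with TimeLapse, 0.125 with SLAM and 0.110 with TUC, over 16, 17 and 15 genes, of which 11, 9 and 5 rose and 0 fell, to be read against the same shares. RPL7L1 lay within the range of that list. Of 13 short-lived regulators 3 had rows, MYC, JUN and JUND, with IH constants of 0.937 with TimeLapse, 0.953 with SLAM and 0.871 with TUC for MYC. Their median log2 changes were -0.22 with TimeLapse, -0.51 with SLAM and -0.57 with TUC. JUN fell in all 3 chemistries, with log2 changes of -0.63 with TimeLapse (adjusted p = 0.00867), -0.98 with SLAM (adjusted p = 0.000294) and -0.85 with TUC (adjusted p = 0.00253), and neither MYC (-0.22 with TimeLapse, -0.24 with SLAM and -0.26 with TUC) nor JUND (-0.03 with TimeLapse, -0.51 with SLAM and -0.57 with TUC) passed the threshold in any.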

How the data were processed

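RNA of labelled and unlabelled HEK293T cells was measured in 18 libraries. Per the submitters' processing notes, reads were handled with cutadapt, HISAT2, STAR, HISAT, Picard, HTSeq and DESeq2 against GRCh38; roles and versions are not given in the sources used here. Per the labels, the authors deposited read counts by library, aligner, gene and number of T-to-C mismatches, used here for depth and converted shares in the HISAT-3N D alignments (a converted read has at least 1 mismatch; counts cover counting error only). They also deposited bakR first-order degradation rate constants per transcript and chemistry, under DO and IH, their log2 change and its adjusted p-value; the adjustment method is not stated, and the fits could not be rerun from counts by gene symbol. The deposited log2 change was positive where IH exceeded DO and differed from the log2 ratio of the constants by at most 0.26 in members.

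Ranks, medians, counts and Spearman's rho were computed in python 3.11.15 with pandas 2.3.3 and scipy 1.17.1. Percentiles run over all transcripts of a chemistry. Chemistries were matched to the table's names through the labels: NaIO4 with TFEA at pH 5.2 to TimeLapse (titles beginning TL), iodoacetamide to SLAM, OsO4 with NH3 to TUC. The count table names genes by Ensembl identifiers, for which no symbols were at hand, so the planned edgeR tests of counts and converted shares for the members were not run. The members and lists were chosen with earlier results of these data known. Named members were those with the lowest, median and highest IH constant and the smallest and largest log2 change per chemistry, those against the common direction, those that missed an adjusted p of 0.05, and a set of well-known ones (RPSA, stalk, 5S, tunnel, MDM2-binding and disease genes); members that missed it in only some chemistries are given by counts, save those named for another reason. RPS21, RPS10, RPS13, RPS29, RPL37, RPL8 and the pseudogene rows were singled out after their values were seen, some of them also under the rule. A few genes enter the counts and medians but are not reported here by name, and 3 of them were left out of the plots that name each member.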

Additional observations from a re-analysis of the deposited data

How the results depend on the processing

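The members' median log2 change stayed positive under the 3 alternatives that bear on it, and the members' median constant stayed below the overall one under the 2 that bear on it. With 199 of 206 member values positive and few members dropped, both outcomes were largely fixed in advance. At an adjusted p under 0.01, 27 of 69 members were higher with TimeLapse, 20 of 68 with SLAM and 27 of 69 with TUC. At that threshold 33.5%, 32.4% and 27% of all transcripts were higher, in the same order, and 0 members were lower with SLAM. With only transcripts listed for all 3 chemistries, the members' median IH constant was 0.292, 0.282 and 0.358 times the overall one (TimeLapse, SLAM, TUC), the DO ratio 0.329, 0.349 and 0.356, and the SLAM median log2 change 0.94. Without RPL7L1 the median log2 changes were 1.19, 0.94 and 1.17, the IH ratios 0.271, 0.277 and 0.336, and the SLAM DO ratio 0.33. The log2 ratio of the constants in place of the deposited log2 change gave medians of 1.13, 0.89 and 1.1, and no member changed sign. The planned count and converted-share tests with their alternatives were not run, since no table pairs the count table's identifiers with symbols here. No paired analysis was possible because the deposited table holds no values per replicate, and for the same reason no library could be left out. The depth behind a single constant is unknown.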
